A study of Mus musculus with 2 samples.

Results

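Interferon-stimulated genes and guanylate-binding proteins were examined in mouse 5cc7 T cell blasts, helper T cells whose receptor sees a moth cytochrome c peptide. The list named 46 genes. A gene was taken when a probe set of the array was annotated to its symbol and to no other, which held for 41 genes with 66 probe sets, out of 18193 named genes in all. The genes Gbp4, Gbp5, Tgtp1, Isg15 and Ifi44 had no such probe set and were not analysed here. The cells had been stimulated in vitro with the peptide, and RNA was taken after 5 days. The labels give 1 group of 2 Affymetrix arrays, set 1 and set 2, with no resting, interferon-treated or interferon-blocked sample, and name neither strain, age nor sex of the animals. No difference between conditions could therefore be tested, and the questions left by the design are which members were detectable and how well the arrays matched. Whether the arrays stand for different cultures is not stated in the labels, and a purely technical spread between them is possible.

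Interferons are secreted proteins that switch on genes of antiviral and antimicrobial defence. Type I interferons (alpha and beta) act through a receptor linked to the kinases TYK2 and JAK1, and their target promoters carry the interferon-stimulated response element (ISRE). Interferon gamma, which T cells themselves can make, acts through JAK1 and JAK2, and many of its target promoters carry the gamma-activated site (GAS). The 46 genes were divided into an interferon gamma group of 12 GTPases and a type I group of 34 genes by which interferon each is best known for, although many respond to both.

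Stretches of promoter are shown here for members of both groups, because the same response element lies before genes that were well above background and before genes that were not. They are RefSeq sequences of the build GRCm38.p6, read 5′ to 3′ on the strand of the gene. Each ends at or before the annotated start site, and capitals mark matches to the ISRE core, which is GAAA, any 2 bases and GAAA again, or its reverse complement of TTTC, any 2 bases and TTTC. The first 6 genes belong to the gamma group and were above background, and the last 3 belong to the type I group and were not. This choice does not mean that type I genes with the core were all low. Bst2, Ifitm2, Oas3 and Trim30a, type I genes above background, also hold it before the start site, and their stretches are not printed.
Gbp2 (chr3:142620579-142620638, plus strand): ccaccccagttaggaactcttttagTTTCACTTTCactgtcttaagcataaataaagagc
Gbp3 (chr3:142559974-142560033, plus strand): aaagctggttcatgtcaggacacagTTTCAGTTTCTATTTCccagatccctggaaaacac
Gbp7 (chr3:142530258-142530317, plus strand): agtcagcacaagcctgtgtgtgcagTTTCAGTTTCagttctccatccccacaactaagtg
Igtp (chr11:58199497-58199555, plus strand): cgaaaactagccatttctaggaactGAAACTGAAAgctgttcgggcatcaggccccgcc
Irgm2 (chr11:58214888-58214947, plus strand): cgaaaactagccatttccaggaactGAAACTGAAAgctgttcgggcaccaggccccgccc
Irgm1 (chr11:48871421-48871475, minus strand): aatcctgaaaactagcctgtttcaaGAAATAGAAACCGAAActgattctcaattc
Ifit1 (chr19:34640760-34640819, plus strand): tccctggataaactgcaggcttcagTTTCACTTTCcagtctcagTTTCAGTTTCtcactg
Oas1a (chr5:120907526-120907570, minus strand): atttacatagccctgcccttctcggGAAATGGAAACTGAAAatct
Rsad2 (chr12:26456538-26456597, minus strand): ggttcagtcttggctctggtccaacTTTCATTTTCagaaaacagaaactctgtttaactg

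Values are the deposited intensities on a linear scale, in arbitrary units. Median intensity over the 45037 probe sets was 36.4 on set 1 and 37.9 on set 2. The background bound of each array was the 95th percentile of the probe sets for genes of liver, eye, pancreas and kidney, at 54.1 (set 1) and 55.8 (set 2). Above background means past this bound on both arrays. A gene was called above when at least 1 of its probe sets was, and its level was read from its brightest probe set. The bound is not strict: 11 of 53 genes of a second list of other organs passed it, the brightest being Mbp at 493 ± 31.3 and Tg at 432 ± 18.7 (SD, n = 2), and Pomc reached 113 ± 7.42. The cells carried the markers of their label, with 9 of 9 measured T cell genes above background, among them Cd3e at 1398 ± 46.7 and Cd4 at 1119 ± 95.2. Intensity also depends on the probes, so levels of different genes are not abundances to be ranked. In such bulk RNA, few cells with much of a transcript and many cells with little of it cannot be told apart.

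Of the 41 measured members 32 (78.0%) were above background, against 47.3% of all 18193 named genes. Counted by probe set, 49 of 66 exceeded both bounds, against 38% of all probe sets. The interferon gamma group was above background in 9 of 9 cases and the type I group in 23 of 32 (71.9%). Median intensity was 514 in the gamma group, 176 in the type I group and 53.9 over all named genes. The difference between the groups was not tested, since genes are not replicates. All 9 members that were not above background belonged to the type I group, and 7 of them were IFIT, Mx or OAS genes. All 18 members listed as targets of both interferon types were above background. That list was drawn up with earlier results of these data known, so its count is not an independent result. With these 18 members left out the type I group had 11 of 20 (55%) and the gamma group 3 of 3, beside 47.3% of all named genes. As all 18 were above background, leaving them out could not raise either share. These remaining counts are therefore not independent results either.

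**Figure D1:**
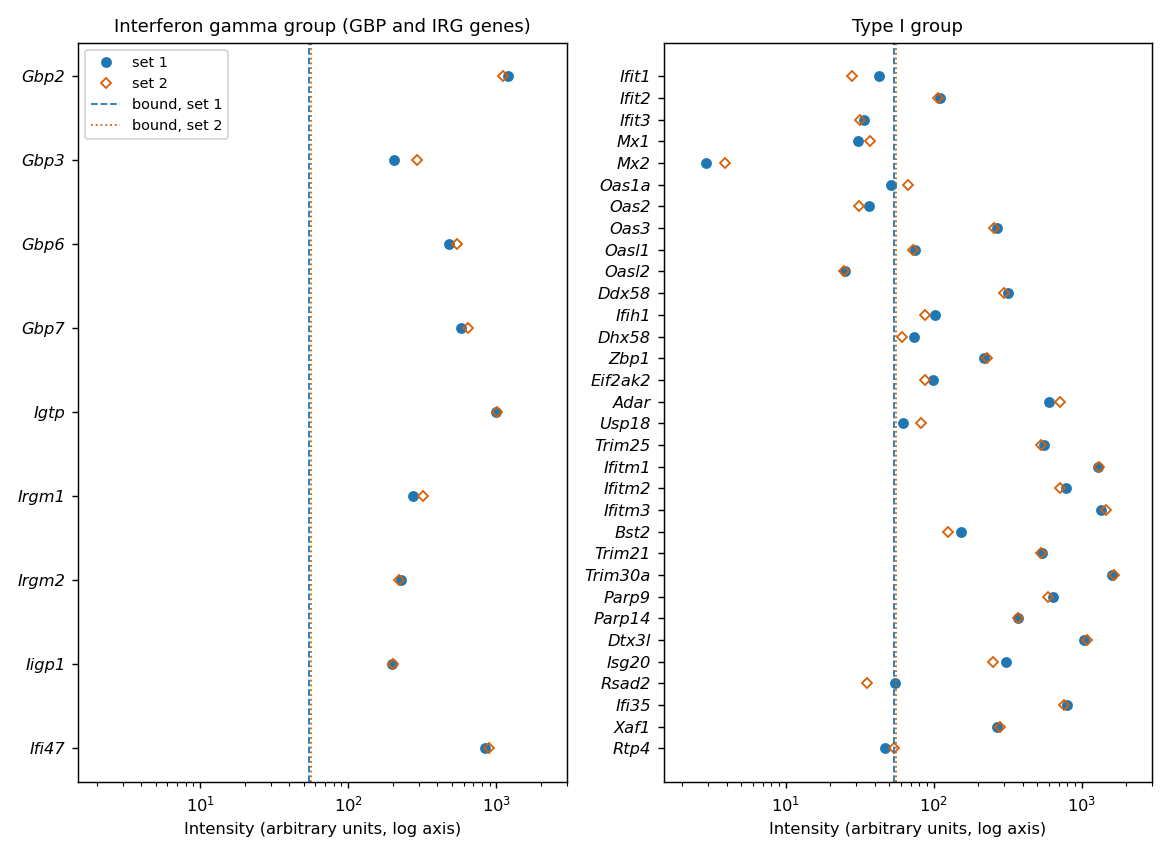
Intensity of every measured member on set 1 (filled circles) and set 2 (open diamonds), on a log axis, with the background bound of each array as a vertical line. All 9 genes of the gamma group lie to the right of both bounds, whereas 9 of the 32 type I genes do not.

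The guanylate-binding proteins are large GTPases that gather on the vacuoles of intracellular pathogens and on bacteria in the cytosol. All 4 that were measured were above background. Gbp2 read 1192.9 on set 1 and 1102.6 on set 2 (1148 ± 63.9, SD, n = 2). Gbp7 read 575.7 and 644.8, and Gbp6 read 481.8 and 545.2. Gbp3 read 203 on set 1 and 288.9 on set 2, in relative terms the widest gap between the arrays among members above background. Even so, its lower reading was 3.75 times the bound of that array.

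The immunity-related GTPases are smaller interferon-inducible GTPases that act on pathogen vacuoles, and those named Irgm or Igtp are known as regulators of the others. All 5 measured genes were above background. Igtp read 996.5 on set 1 and 1016 on set 2 (1006 ± 13.8), and Ifi47 read 833.8 and 885.9 (860 ± 36.8). Irgm1 read 271.7 and 319.1, and Irgm2 read 226.3 and 218.5. Iigp1, an effector that loads onto the vacuole, read 197.2 and 200.4 on its brighter probe set, while its other probe set read 50.9 on set 1, under the bound, and 61.8 on set 2. Each gene of the group was thus at least 3.59 times the bound on both arrays by its brightest probe set.

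The IFIT and Mx genes, classical targets of type I interferon, were mostly not above background, with 1 of 5 past the bound. IFIT proteins bind viral RNA that lacks the host cap marks. Ifit2 was the exception, at 110 on set 1 and 107 on set 2. Ifit1 read 42.6 and 28.1, and Ifit3 read 34 and 31.9. The antiviral GTPase genes Mx1 and Mx2 read 30.6 and 36.9 for the former and 2.9 and 3.9 for the latter. Both readings of each of these 4 genes lay under the bounds.

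The OAS genes encode oligoadenylate synthetases, which on binding double-stranded RNA make the activator of the nuclease RNase L, and the OASL genes encode relatives. Of the 5, Oas3 and Oasl1 were above background. Oas3 read 266.5 on set 1 and 257 on set 2, nearly 5 times the bound. Oasl1 was close to the bound, at 74.4 and 72.2. Oas1a read 51.6 on set 1 and 67.5 on set 2, so it passed on set 2 alone and was not called. Oas2 read 36.8 and 31.5, and Oasl2 read 25.2 and 24.8, all under the bounds. Rsad2, which encodes the antiviral enzyme viperin, had 3 probe sets and none passed on both arrays; its brightest read 54.6 and 35.4.

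**Figure D2:**
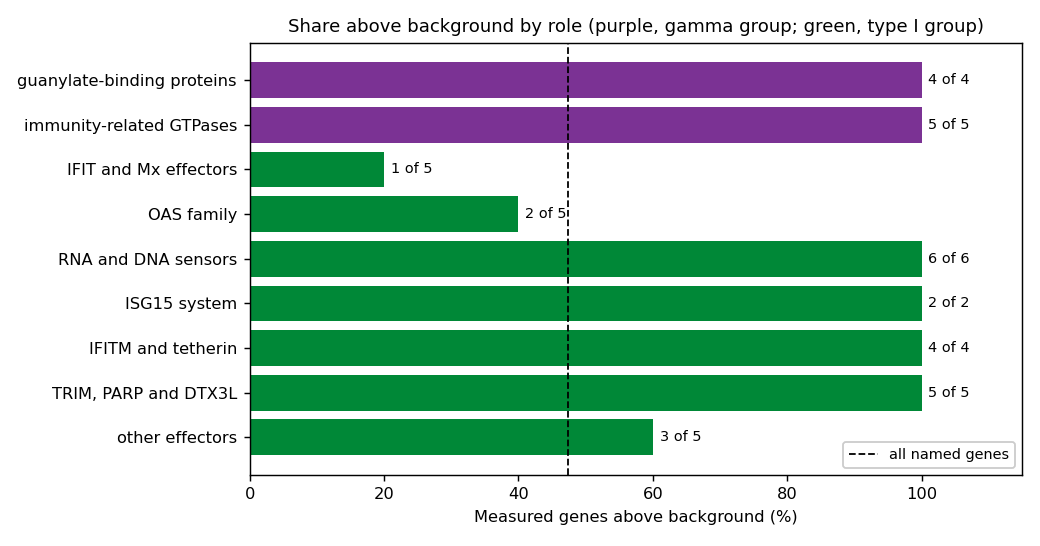
Percentage of measured genes above background in each role list, with the count beside each bar and the share of all named genes (47.3%) as a dashed line. The IFIT and Mx list (1 of 5) and the OAS list (2 of 5) lie to the left of that line.

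The sensors and RNA-binding enzymes of the type I group were above background in 6 of 6 cases, although 3 of them were near the bound. Ddx58, which encodes the cytosolic RNA sensor RIG-I, read 317 on set 1 and 296.9 on set 2 on its brightest probe set, while its others read 68.2 and 55.8, and 41.3 and 64.8. Ifih1, which encodes the related sensor MDA5, read 102 and 87.2. Dhx58, which encodes their regulator LGP2, read 73.1 and 61.3, and only 1 of its 3 probe sets passed. Eif2ak2, the kinase PKR that halts translation on double-stranded RNA, read 98.5 and 86.9. Zbp1, a sensor of Z-form nucleic acid, read 217.5 and 228.1. Adar, an enzyme that edits adenosine in double-stranded RNA, read 605 and 709.6, and all 3 of its probe sets were above background. The readings of Ifih1, Dhx58 and Eif2ak2 stayed under 2 times the bound on both arrays.

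The ISG15 system attaches a ubiquitin-like protein to other proteins and removes it. Usp18, the protease that removes it and that also restrains the type I receptor, was weakly above background, at 62.3 on set 1 and 81.9 on set 2. Trim25, a ubiquitin ligase that acts on the RIG-I pathway, read 556.1 and 530.6 on its brightest probe set. That probe set is of a kind that can bind transcripts of several genes. Without probe sets of that kind the level of Trim25 fell from 543 to 454. Each of its 3 probe sets was above background, and the dimmest read 102.8 and 147.3.

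The IFITM genes encode small membrane proteins that hinder the entry of enveloped viruses. Ifitm3 read 1347.8 on set 1 and 1459.7 on set 2 (1404 ± 79.1). Ifitm1 read 1295.7 and 1306.2 (1301 ± 7.42), and Ifitm2 read 777.9 and 711.6 (745 ± 46.9). Bst2, or tetherin, which holds budding virus at the cell surface, read 153.4 and 125.8. All 4 were thus above background on both arrays.

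The TRIM, PARP and DTX3L list was above background in 5 of 5 cases. Trim30a, a TRIM protein of mice, read 1607 on set 1 and 1648.1 on set 2 (1628 ± 29.1). Trim21, a cytosolic receptor for antibody-coated virus, read 539.6 and 532.6. Dtx3l and Parp9, which form a complex that modifies histones and other proteins, read 1036.1 and 1085.6 for Dtx3l and 640.4 and 595.1 for Parp9. Parp14, another ADP-ribosyltransferase, read 368.5 and 370.4. These 3 genes follow one another in the RefSeq gene order with no other protein-coding gene between them.

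Of the 5 other effectors, 3 were above background. Ifi35, whose product binds the STAT partner NMI, read 789.5 on set 1 and 760.8 on set 2, Isg20, an RNA exonuclease, read 306.2 and 250, and Xaf1, which antagonises the apoptosis inhibitor XIAP, read 267.1 and 282.5. Rtp4, a receptor-transporting protein, read 46.6 and 53.9 on its brighter probe set and was not above background, and neither was Rsad2. The brightest probe set of Ifi35 is of a kind that can bind transcripts of several genes. Without such probe sets the gene remained above background, but its level fell from 775 to 192.

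Adjacent members did not always share a call. RefSeq order placed 7 runs of members side by side. The runs of Igtp with Irgm2, of Parp14, Dtx3l and Parp9, and of Ifitm2, Ifitm1 and Ifitm3 were above background throughout, as were both measured genes of the run Gbp5, Gbp7 and Gbp3. In the runs of Ifit2 with Ifit3, of Oasl2 with Oasl1 and of Oas2 with Oas3, 1 gene of 2 was above background. Only protein-coding genes were considered in this order.

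Probe sets of one member often differed. Of 18 members with several probe sets, 12 had all of them above background, 4 had a part and 2 had none. The partial cases were Ddx58 with 2 of 3, Dhx58 with 1 of 3, and Iigp1 and Xaf1 with 1 of 2. On set 1 the ratio of the brightest to the dimmest probe set had a median of 3.68. It ran from 1.03 for Gbp6 to 51.8 for Rtp4, whose dimmer probe set read 0.9 on set 1. Both probe sets of Gbp2, Gbp6 and Gbp7 were above background.

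**Figure D3:**
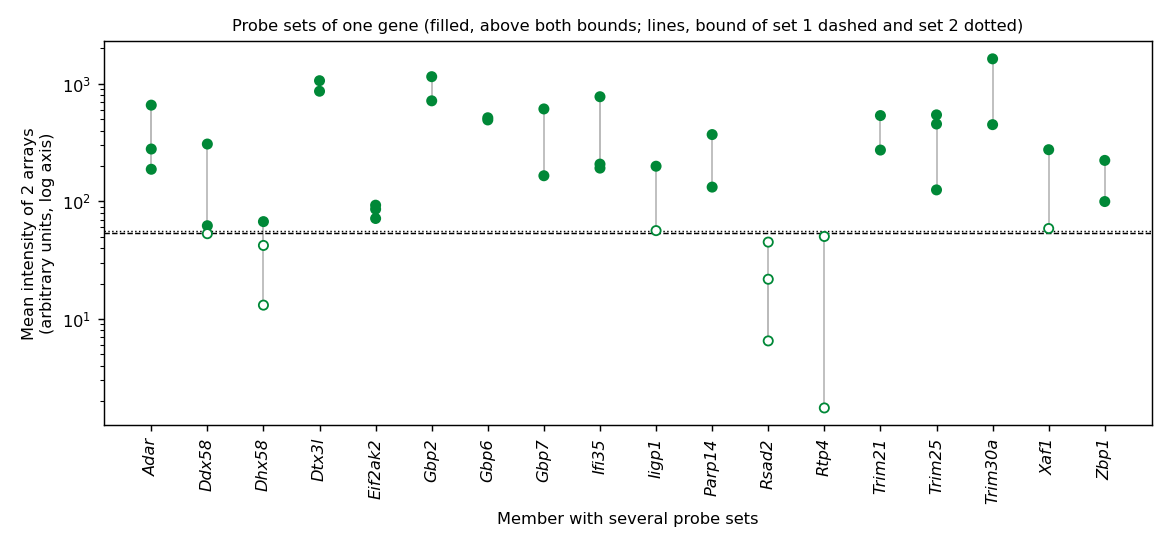
Mean intensity over 2 arrays of each probe set, on a log axis, for the 18 members with more than 1 probe set; filled points exceeded the bound on both arrays. Points of one gene spread widely in Rtp4, Rsad2 and Ddx58 and closely in Gbp6 and Dtx3l.

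The members were next compared between the arrays. The difference was the log2 ratio of set 2 to set 1, centred by subtracting 0.03, the median ratio of the probe sets above background. None of the 32 members above background differed by more than 1.5-fold, against 2.46% of the 8609 named genes above background, a share so low that a count of 0 says little about the members. Among the 9 members not above background, Ifit1 and Rsad2 differed by more. The members' differences ran from -0.32 for Isg20 to 0.48 for Gbp3, with a median of -0.03, and their median size was 0.09 against 0.13 over all named genes above background. By direction, 13 members were higher and 19 lower on set 2 after centring, but 16 and 16 in the deposited readings, since Iigp1, Ifitm1 and Parp14 changed side. In the gamma group 6 of 9 were higher on set 2 after centring and 7 of 9 without it, and in the type I group 7 of 23 and 9 of 23. The centred medians were 0.06 and -0.07.

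**Figure D4:**
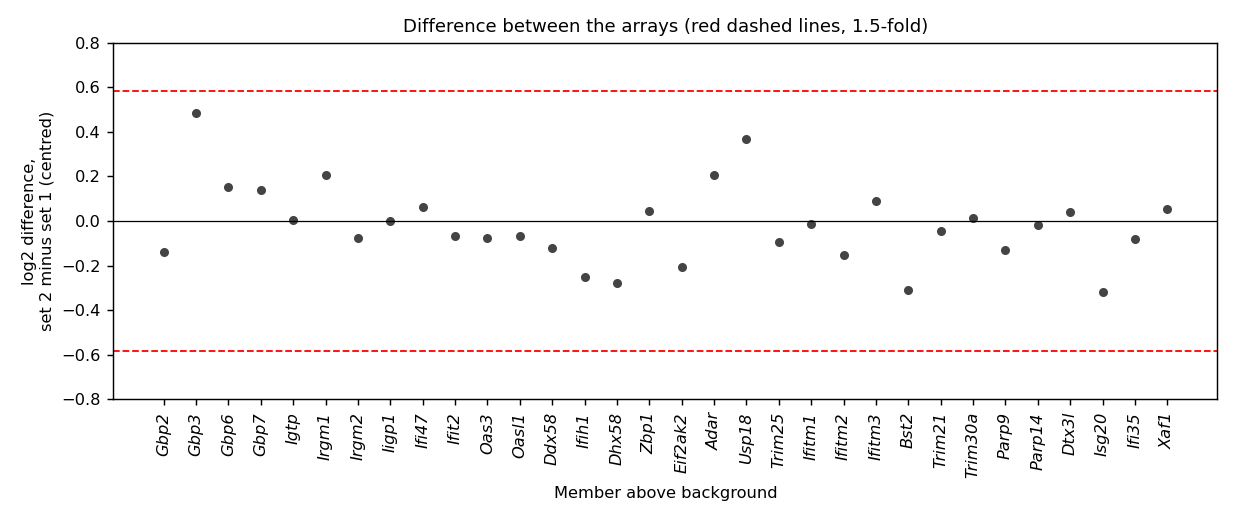
Centred log2 difference between the arrays, set 2 minus set 1, for the 32 members above background, with red dashed lines at 1.5-fold. All points lie between the lines, and Gbp3 comes nearest to the upper one at 0.48.

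Promoter windows of RefSeq, which run from 250 bases before the start site to 50 bases after it, were matched by symbol to 34 of the 46 members. Gbp4, Gbp6, Iigp1, Mx1, Mx2, Oas2, Dhx58, Zbp1, Usp18, Parp9, Parp14 and Rtp4 were not matched. The ISRE core was searched in both forms given above, which covers both strands, and overlapping matches counted once per gene. It was found in 22 of 34 members (64.7%), against 3.99% of the 27025 genes with a window. Counted by window, of which a gene can have several, the share was 3.44% of the 32851 windows of that length. The core was present in 8 of the 9 gamma genes with a window and in 14 of 25 of the type I group. These 9 are not the 9 measured gamma genes: they include Gbp5 and Tgtp1, not measured, and lack Gbp6 and Iigp1. Before the start site alone the ISRE core was held by 17 members, 8 of 9 in the gamma group and 9 of 25 in the type I group. A match in letters is a description and not a shown binding site.

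Presence of the ISRE letters did not separate members by their call. Of the 22 members holding it, 15 were above background, 4 were not and 3 were not measured. The 4 were Ifit1, Ifit3, Oas1a and Rsad2. As the sequences above show, Ifit1 has a pair of separate matches, beginning 104 and 85 bases before the start site. Oas1a has overlapping matches beginning 20 and 14 bases before it, and the match of Rsad2 begins 120 bases before it. Gbp2, above background, has 1 match beginning 59 bases before the start site, and Irgm1 has overlapping matches beginning 30 and 24 bases before it. Of the 12 members without the ISRE letters, 10 were above background, among them Ifi47, Ifitm1 and Dtx3l, 1 was not (Oasl2) and 1 was not measured (Ifi44). Among the other measured genes with a window, 256 of the 505 that held the ISRE letters were above background (50.7%), near the 48.8% of all 14422.

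The stretches of Igtp and Irgm2 printed above, neighbours in the gene order, were aligned at their ISRE match and differed at 2 of 59 bases. The match begins 34 bases before the start site in Igtp and 64 bases before it in Irgm2. The stretches of Gbp2 and Gbp3, aligned in the same way, shared 24 of 60 bases.

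The GAS core was searched as TTCNNNGAA, which reads the same on both strands. It was found in 13 of 34 members (38.2%), against 9.55% of all genes with a window and 8.30% of all windows. It was present in 5 of 9 gamma genes (Gbp5, Gbp7, Igtp, Irgm2 and Tgtp1) and in 8 of 25 type I genes. Before the start site alone the counts were 5 of 9 and 5 of 25. Of the 13 holders, 10 were above background, 1 was not (Oas1a) and 2 were not measured. Of the measured members without the GAS letters, 15 were above background and 4 were not. Among the other measured genes with a window, 582 of the 1228 that held the GAS letters were above background (47.4%), near the 48.8% of all 14422. Both cores were present in 9 members, and in 2 of these a match of one overlapped a match of the other.

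**Figure D5:**
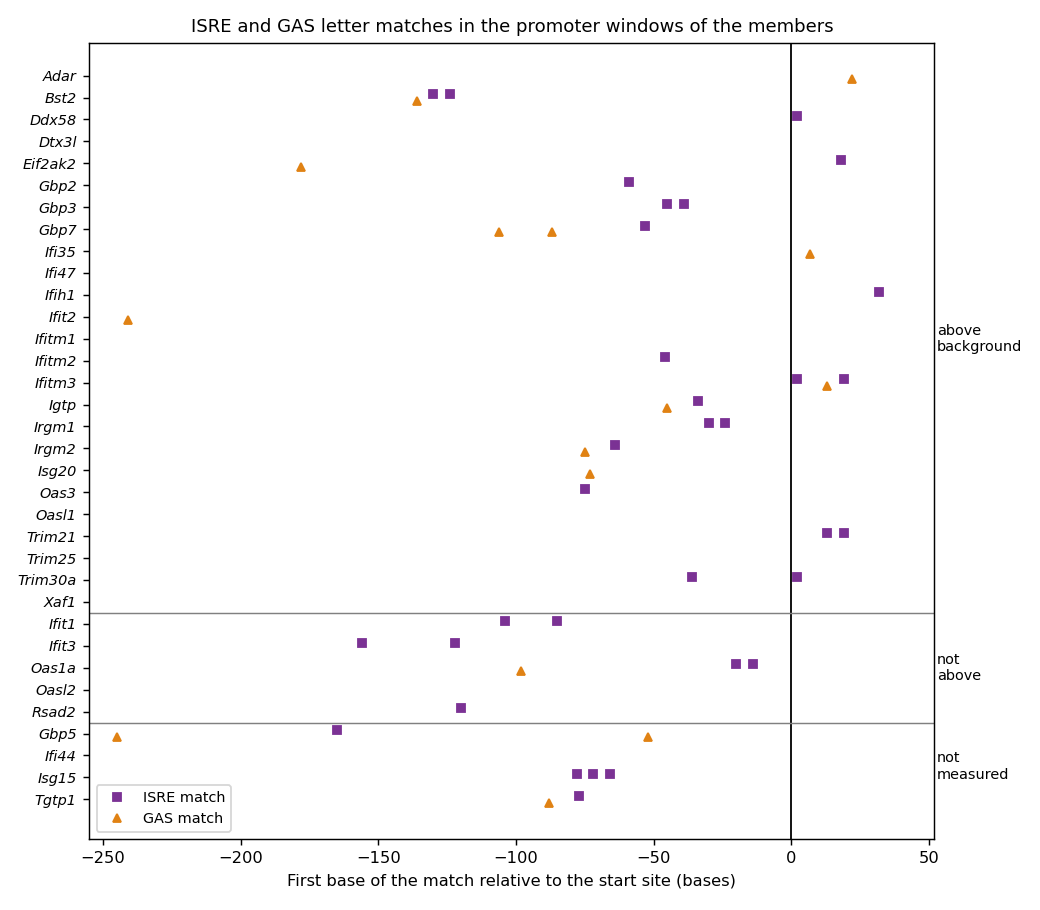
Position of the first base of each ISRE match (squares) and GAS match (triangles), in bases from the annotated start site, for the 34 members with a promoter window, grouped by their call. Squares appear among the genes above background and also beside Ifit1, Ifit3, Oas1a and Rsad2, which were not.

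Other genes of the interferon pathway were counted from lists of 77 genes, of which 68 were measured. Of these, 45 (66.2%) were above background, against 47.3% of all named genes. None of the 10 measured interferon genes was above background. Ifng, the gamma interferon of T cells, read 27.4 on set 1 and 23.8 on set 2, and Ifnb1 read 30.6 and 38.8. Of the 4 receptor chains 3 were above background. Ifnar1 and Ifnar2, the chains of the type I receptor, were at 398 ± 32.5 and 220 ± 21.6 (SD, n = 2). Ifngr1, the chain that binds interferon gamma, was at 836 ± 83.2. Ifngr2, its signalling partner, was not above background on either of its 2 probe sets, and the brighter read 38.2 and 46.6.

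All 5 measured genes of the kinase and STAT list were above background. Jak1 was at 2577 ± 123 and Tyk2 at 244 ± 38.1. Stat2 read 145 on set 1 and 101.6 on set 2, and Irf9 was at 424.5 ± 29.3. The interferon regulatory factors were above background in 7 of 7 cases, with Irf1, itself an early interferon gamma target, at 722 ± 52.2. Irf7, which amplifies type I interferon, was near the bound at 61.1 and 77.6. All 6 feedback inhibitors were above background, with Socs1, which blocks the JAK kinases, weakly so at 65.9 and 66.6.

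Further targets that are not members were counted in the same way. Of 13 other interferon gamma targets 7 were above background (53.8%), near the 47.3% of all named genes. The brightest was Psmb8, at 2763.8 on set 1 and 2664.6 on set 2. Those that were not included Ciita, the MHC class II activator, at 43.5 and 41.9, and the chemokine genes Cxcl9 at 25.8 and 11 and Cxcl10 at 41.4 and 21.9, as well as Fcgr1 at 40.1 and 54.4. Nlrc5, the MHC class I activator, a gene outside the naming rule and chosen with its value known, had a level of 654 ± 39.6. Of 24 other type I targets 18 were above background (75%), and Ddx60, Ifi204, Parp12 and Slfn5 were among the 6 that were not.

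Markers of other cells that can carry interferon-stimulated transcripts were counted beside these results. Of 19 measured macrophage and dendritic cell genes 1 was above background, Csf1r, at 57.3 on set 1 and 146.7 on set 2. The summed level of the list was 505 on set 1 and 723 on set 2. Outside the naming rule and chosen with their values known, Adgre1 (39.7 and 76.6) and Lyz2 (47.3 and 63.8) passed the bound of set 2 alone. Fcgr3 (63.2 and 52.6) passed that of set 1 alone, and the dimmest gene of the list, C1qc, read 2.7 and 1.6. In the plasmacytoid dendritic cell list 6 of 10 genes were above background (summed level 769 and 868.5), but its defining gene Siglech read 10.4 and 36.6, under both bounds. Past the bounds were also 6 of 11 B cell genes (summed level 1347 and 1377). Ms4a1 was the brightest of them at 389.7 and 365.1, and Cd22 read 228.1 and 213.9, both named with their values known. The other 5 measured B cell genes were not above background. These were Cr2 (37.1 and 52.2), Ebf1 (27.4 and 47.8), Fcer2a (57.5 and 26.4), Fcrla (32.6 and 56.3) and Pax5 (54 and 53.7). The 60% of the plasmacytoid list and 54.5% of the B cell list stand beside 47.3% of all named genes. Of 9 NK cell genes 2 passed (summed level 2129 and 2275). These were Klrd1 at 1576.8 and 1683 and Klrk1 at 449.2 and 471.2, which made up most of that sum. No marker of these lists was at 0 on its brightest probe set, but readings under the bounds cannot be told from background. The lowest, Klra1, read 0.9 on set 1 and 0.7 on set 2. With 1 group these lists cannot be set against the members, and their part in the members' levels was not tested.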

How the data were processed

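The series holds 2 Affymetrix mouse arrays of 1 group, hybridised with biotin-labelled complementary RNA per the labels. The authors deposited 1 intensity per probe set and array. Its linear scale was inferred from the range, 0 to 8860.2. No source used here gives the background correction, probe summary, scaling or genome build. Whether the arrays were scaled to a common target is unknown.

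Of 45101 probe sets 64 manufacturer controls were left out. Among the rest 34945 had 1 gene symbol in GEO's platform annotation, 932 had several and 9160 had none. All 66 member probe sets matched RefSeq (GRCm38.p6) by Entrez identifier, with 0 symbols changed. A further 4 probe sets that list a member with another gene were not used. Intensities under 1 were set to 1 before log2. The 2 arrays limit the precision, and no p-value is given. The protein comparison planned for the GTPases was not run.

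Members, lists, bound and role groups were chosen with earlier results of these data known. All members could be named with their values. Of the companion and marker lists, fixed key genes were named, with up to 4 genes a list, in alphabetical order, whose call differed from most of it. Genes of these lists named beyond that rule were chosen with their values known. Scripts used Python 3.11.15, numpy 2.4.6, pandas 2.3.3 and matplotlib 3.10.9, and the calls and motif search were tested on simulated data. Alternatives covered the bound, probe set rule, single arrays, centring, floor, filter and motif.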

Additional observations from a re-analysis of the deposited data

How the results depend on the processing

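Under 8 alternatives to the bound, the probe set rule and the arrays used, the count of members above background ran from 27 of 41 (all named genes 35.7%) when the second list of other organs set the bound to 34 of 41 when it was lowered to the 90th percentile (49.3%), or to each array's median (55.4%). It was 28 (27.8%) when every probe set had to pass and 31 (40.4%) by the median probe set. Without probe sets ending in _x_at or _s_at, which can bind transcripts of several genes, the count was 32 of 41 (46.1%). On either array alone it was 33 (49.99% without set 1 and 49.7% without set 2). The median probe set moved the level of 16 of the 18 members with several probe sets by more than the SD between the arrays. The other measured members have 1 probe set each, so this setting cannot move them. The gamma group kept 9 of 9 except where every probe set had to pass (8 of 9, without Iigp1), and the type I group ran from 18 to 25 of 32. Of the members, 24 were above background under each of the 8 alternatives and 6 under none of them. Those called above that lost the call in 1 or more were Iigp1, Oasl1, Ddx58, Ifih1, Dhx58, Eif2ak2, Usp18 and Xaf1, and those that gained it were Oas1a, Rsad2 and Rtp4. With the 18 members known for both interferon types left out, the counts were 3 of 3 for the gamma group and 11 of 20 for the type I group, against 47.3% of all named genes. The list of these 18 was drawn up with earlier results of these data known, and all 18 were above background. Leaving them out could therefore not raise either share. Without the filter on background, 2 members passed 1.5-fold between the arrays, Ifit1 and Rsad2, both lower on set 2, out of 41 and against 24.7% of all named genes. The ISRE core followed by CT was held by 12 of 34 members (0.303% of all genes with a window) and the stricter GAS match TTCCNGGAA by 5 (1.35%). No paired analysis was possible because there is 1 group. Calls near the bound are limited by the signal over background: 6 of the 32 members above it were under 2 times the bound on at least 1 array, none of them in the gamma group.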
